A study of Mus musculus with 9 samples.

Results

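The genes described here are 10 neutrophil and marrow granule genes, S100a8, S100a9, Ngp, Mpo, Camp, Ltf, Elane, Lcn2, Retnlg and Mmp8. They were taken by name from the mRNA table of the trigeminal ganglion (TG), whose transcripts gave 21809 gene sums. All 10 were found, and all 10 passed the filter of a mean of at least 0.1 FPKM, which 16096 gene sums passed. FPKM counts the fragments of a transcript, scaled to its length and to all mapped fragments of the library, and a gene sum adds up these values over the transcripts of 1 gene. The members were chosen because they stood high in 1 library, CFA6D replicate 6. Their levels, fold changes and counts of calls are therefore a description, and no p-value is given for a member.

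Granule proteins are made in the bone marrow while neutrophils ripen, in a fixed order. Early precursors make the proteins of the primary granules, later ones make those of the secondary and tertiary granules, and mature neutrophils carry the finished granules into blood and inflamed tissue. S100a8 and S100a9 encode the subunits of calprotectin, an alarmin that fills the cytosol of neutrophils. A ganglion holds the cell bodies of sensory neurons with their satellite glia, Schwann cells, vessels and resident macrophages, and few neutrophils.

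The study asked how the RNA of the TG differs after inflammation of the temporomandibular joint (TMJ), the jaw joint that this ganglion serves. Wild-type (WT) male C57BL/6 mice, 8 weeks old, received 10 µl of complete Freund's adjuvant (CFA, at 5 mg/ml) or 10 µl of saline in the joint on 1 side, under isoflurane. The TG was collected on day 3 after saline (Saline, replicates 1 to 3), on day 3 after CFA (CFA3D, replicates 1 to 3) or on day 6 after CFA (CFA6D, replicates 4 to 6). None of the 9 libraries is labelled saline on day 6. CFA6D therefore differs from Saline in day as well as in CFA, and these cannot be told apart. Each library pooled unilateral TG punches of 3 mice, so the spread between libraries is a spread between pools. The steps in the low FPKM values gave about 29.9 to 42.3 M read pairs per library, and CFA6D replicate 6 lay inside that range. It stood apart by its values: it was over 5-fold above every other library in 158 of the gene sums tested (0.982%), and the other libraries were so in 0 to 43. A bulk library does not tell fewer cells of a type from less RNA per cell.

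The members lie on 6 chromosomes. S100a8 and S100a9 are neighbours on chromosome 3, 22.6 kb apart, and Camp, Ngp and Ltf lie in this order on chromosome 9, with 570.1 kb between Camp and Ngp and 596.3 kb between Ngp and Ltf. C/EBP factors and PU.1 are the textbook regulators of granule genes. Their motifs were therefore looked for on both strands in the 250 bases before the RefSeq start of each member, spelled TTNNGNAA for C/EBP and GAGGAA for PU.1, where N is any base. The C/EBP letters were in 7 of 10 members and in 36.8% of all 32851 promoters. Camp, Mpo and Elane did not have them. The PU.1 letters were in 6 of 10 members and in 23.3% of all promoters, and were not in S100a9, Ngp, Camp or Retnlg. Several spellings were tried with these promoters in view, so the counts are a description and nothing is read from them. The promoters of 5 members are shown from RefSeq (GRCm38.p6), up to the base before any annotated transcript start: the calprotectin pair as the highest members, Ngp and Camp as secondary granule genes with and without the C/EBP letters, and Elane as a primary granule gene. Capitals mark the motif letters on either strand, and no marked stretch carries both motifs.
S100a8 promoter, chr3:90668821-90668977, plus strand: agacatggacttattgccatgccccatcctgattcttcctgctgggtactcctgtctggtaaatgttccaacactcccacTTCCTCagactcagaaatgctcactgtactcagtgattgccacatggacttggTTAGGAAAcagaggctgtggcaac
S100a9 promoter, chr3:90695722-90695971, minus strand: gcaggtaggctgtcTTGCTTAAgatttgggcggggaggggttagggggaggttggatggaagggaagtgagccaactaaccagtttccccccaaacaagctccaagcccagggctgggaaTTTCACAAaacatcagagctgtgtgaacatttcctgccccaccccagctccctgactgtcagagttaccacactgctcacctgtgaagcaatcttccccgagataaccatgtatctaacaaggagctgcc
Ngp promoter, chr9:110419558-110419746, plus strand: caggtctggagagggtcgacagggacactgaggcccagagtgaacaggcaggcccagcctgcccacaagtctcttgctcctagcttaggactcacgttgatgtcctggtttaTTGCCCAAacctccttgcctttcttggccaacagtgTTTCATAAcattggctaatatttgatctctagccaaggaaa
Camp promoter, chr9:109849618-109849706, minus strand: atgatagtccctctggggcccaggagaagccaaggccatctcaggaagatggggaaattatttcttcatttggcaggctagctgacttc
Elane promoter, chr10:79886062-79886246, plus strand: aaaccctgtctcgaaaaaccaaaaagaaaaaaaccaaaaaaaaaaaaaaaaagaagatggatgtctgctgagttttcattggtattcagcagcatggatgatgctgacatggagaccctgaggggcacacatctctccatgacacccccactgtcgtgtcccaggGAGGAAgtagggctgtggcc
The printed stretch of S100a8 holds 1 match to each motif. Those of S100a9 and Ngp hold 2 matches to C/EBP each, that of Elane 1 to PU.1, and that of Camp none. These matches are letters in a window, and binding was not measured.

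The calprotectin genes were the highest members in every library. S100a8 (chr3:90668978-90670035, plus strand, 3 exons) stood at 33.9, 23.2 and 16.4 FPKM in Saline replicates 1 to 3. It stood at 10.5, 25.0 and 8.45 FPKM on CFA3D. On CFA6D it stood at 45.0 and 40.0 FPKM in replicates 4 and 5 and at 901 FPKM in replicate 6. All CFA6D libraries were above all others, replicates 4 and 5 by little and replicate 6 by 20.0-fold over the next highest library, while Saline and CFA3D overlapped. S100a9 (chr3:90692632-90695711, minus strand, 3 exons) stood at 42.0, 32.5 and 20.5 FPKM in Saline and at 14.1, 26.0 and 7.56 FPKM on CFA3D. It stood at 57.2, 48.2 and 1024 FPKM on CFA6D. The order of the groups was the same as for its partner, and the CFA6D libraries again did not overlap the others. In CFA6D replicate 6, S100a9 was the gene sum of rank 5 and S100a8 that of rank 9 among those tested, against ranks 1315 and 1857 by the Saline mean. Approximate read pairs behind S100a9 were 140 to 1160 in the other 8 libraries and 19897 in replicate 6.

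Ngp, Camp and Ltf encode secondary granule proteins: neutrophilic granule protein, the cathelicidin CRAMP, an antimicrobial peptide, and lactoferrin, which binds iron. Ngp (chr9:110419747-110423012, plus strand, 4 exons) stood at 16.6, 9.78 and 4.94 FPKM in Saline, at 5.27, 7.69 and 3.12 on CFA3D and at 14.7, 14.6 and 334 FPKM on CFA6D. Replicates 4 and 5 were inside the Saline range and above all CFA3D libraries. Replicate 6 was 20.1-fold above the highest other library, which was Saline replicate 1. Camp (chr9:109847379-109849617, minus strand, 4 exons) stood at 8.96, 4.83 and 2.48 FPKM in Saline, at 2.43, 4.51 and 1.89 on CFA3D and at 5.68, 6.63 and 161 FPKM on CFA6D. Ltf (chr9:111019292-111042767, plus strand, 17 exons) stood at 11.6, 5.76 and 2.11 FPKM in Saline, at 2.97, 5.87 and 1.90 on CFA3D and at 7.67, 7.88 and 147 FPKM on CFA6D. For both, Saline replicate 1 was above CFA6D replicates 4 and 5, and replicate 6 was above all libraries, 17.9-fold for Camp and 12.8-fold for Ltf.

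Lcn2, Retnlg and Mmp8 encode lipocalin 2, which withholds iron from bacteria, a resistin-like protein of neutrophils, and neutrophil collagenase. Lcn2 (chr2:32384633-32387797, minus strand, 6 exons) can also be induced in glia and epithelia. It stood at 9.83, 5.73 and 9.33 FPKM in Saline, at 5.54, 11.4 and 5.05 on CFA3D and at 10.1, 11.0 and 132 FPKM on CFA6D. It varied least of all members outside replicate 6, 2.26-fold from the lowest to the highest of the other 8 libraries, and that highest was CFA3D replicate 2. Retnlg (chr16:48872621-48874496, plus strand, 4 exons) stood at 7.84, 4.30 and 3.01 FPKM in Saline, at 2.27, 5.97 and 2.12 on CFA3D and at 9.71, 9.73 and 119 FPKM on CFA6D. Its CFA6D libraries were above all others. Mmp8 (chr9:7558456-7568485, plus strand, 10 exons) stood at 1.28, 0.632 and 1.44 FPKM in Saline, at 0.387, 0.861 and 0.254 on CFA3D and at 1.39, 1.84 and 23.0 FPKM on CFA6D. Saline replicate 3 was above CFA6D replicate 4 here, and no CFA3D library reached the CFA6D values.

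The primary granule genes had the lowest levels beside Mmp8. Mpo, myeloperoxidase (chr11:87793581-87804413, plus strand, 14 exons), stood at 2.14, 1.15 and 0.329 FPKM in Saline, at 0.364, 0.781 and 0.268 on CFA3D and at 1.09, 1.21 and 32.2 FPKM on CFA6D. Elane, neutrophil elastase (chr10:79886247-79888215, plus strand, 5 exons), stood at 2.64, 0.902 and 0.126 FPKM in Saline, at 0.370, 0.920 and 0.377 on CFA3D and at 0.791, 1.03 and 30.2 FPKM on CFA6D. Saline replicate 1 was the highest library after CFA6D replicate 6 for both genes. Saline replicate 3 held about 5 read pairs of Elane, so the 20.98-fold span of its Saline libraries rests on few reads.

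**Figure D1:**
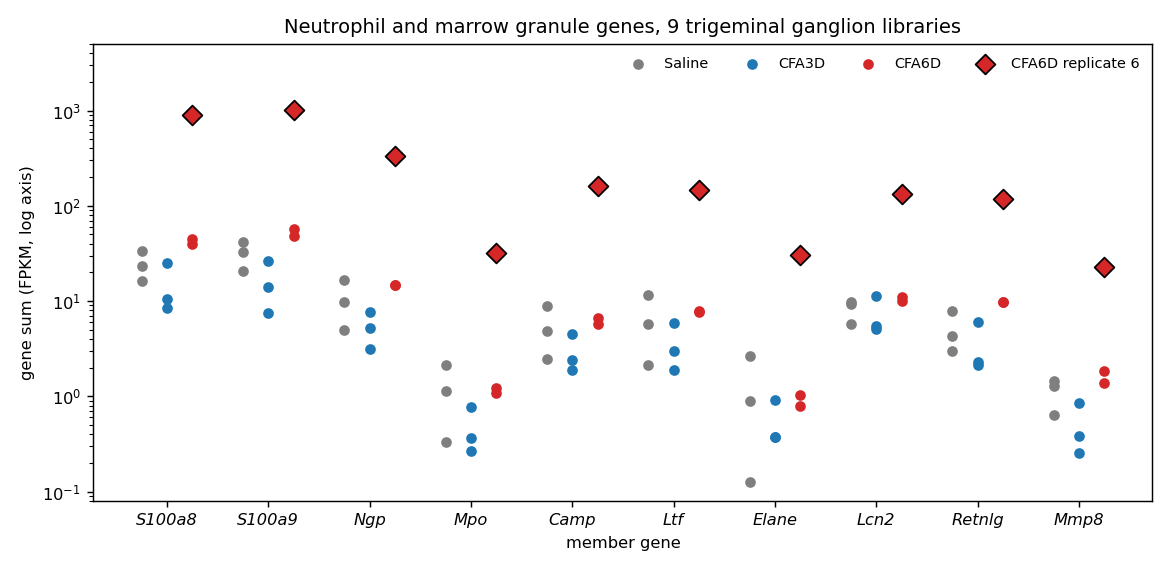
FPKM of each member (gene sum, log axis) in the 9 libraries, 1 point a library, coloured by group, with CFA6D replicate 6 as a diamond. The diamond lies 11.4-fold (Elane) to 20.1-fold (Ngp) above the next highest library, while the other 8 points of a gene overlap between Saline and CFA3D.

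Outside CFA6D replicate 6 the members also ranked the libraries alike. Saline replicate 1 was the highest Saline library for 9 of 10 members and replicate 3 the lowest for 8. On CFA3D, replicate 2 was the highest for 10 of 10 and replicate 3 the lowest for 9. CFA6D replicates 4 and 5 were close, with a ratio of replicate 5 to replicate 4 of 0.842 (S100a9) to 1.32 (Mmp8). Over these 8 libraries the correlation of log2(FPKM + 0.1) between members had a median of 0.86 in the 45 pairs and ran from 0.30 (Elane with Mmp8) to 0.99 (Mpo with Camp). These points share their library and its scaling, so the correlations are a description.

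On CFA3D, all 10 members had a lower group mean of log2(FPKM + 0.1) than in Saline, and the libraries overlapped for each. The log2 fold changes ran from -1.11 ± 1.01 (SE) for S100a9 to -0.23 ± 0.85 for Lcn2, with a median of -0.80, and the median over all gene sums tested was 0.05. A gene sum was called where its unadjusted p in limma was under 0.05 and it changed at least 2-fold. This called 0 of the 10 members in either direction, and over all gene sums 0.267% were called lower and 0.0746% higher. The errors pool the spread of all 9 libraries, CFA6D replicate 6 included. In a fit of the 6 Saline and CFA3D libraries alone, the fold change of S100a9 was -1.11 ± 0.42 and that of Mmp8 was -1.08 ± 0.42, and these 2 of 10 were called lower, beside 0.391% of all gene sums. In 0 of 10 members did every CFA3D library lie below every Saline library, which 2.11% of all gene sums did. In this comparison limma gave 0 gene sums with an adjusted p under 0.05 and 717 with an unadjusted p under 0.05.

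On CFA6D, all 10 members had a higher group mean than in Saline, with log2 fold changes from 1.59 ± 0.85 (SE, Lcn2) to 2.32 ± 1.03 (S100a8). Their median was 1.95, beside 0.03 over all gene sums tested. S100a8 and Retnlg were called higher, 2 of 10, where 0.398% of all gene sums were. Under 7 other processing settings that left out no library of either group, S100a8 lost its call in 5 and Retnlg in none. In 4 of 10, S100a8, S100a9, Lcn2 and Retnlg, every CFA6D library lay above every Saline library, as in 10.7% of all gene sums. These counts belong to the comparison that chose the members and carry no weight of their own. Without CFA6D replicate 6, the median of the members was 0.56 and 0 were called, as was also so without Saline replicate 2 or 3, while 0.325% of all gene sums were called higher. The same 4 members lay above every Saline library, beside 13.7% of all gene sums. This could not come out otherwise, since the library left out was the highest one of every member. Without replicate 6 the largest difference was that of Retnlg, 1.04 ± 0.47, and the smallest was that of Elane, 0.23 ± 0.85. The adjusted p in limma was under 0.05 for 0 gene sums with all libraries, where 1781 had an unadjusted p under 0.05. Without replicate 6 it was under 0.05 for 3, none of them a member.

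Between the days, the members were higher on CFA6D than on CFA3D by 1.83 ± 0.85 (Lcn2) to 3.32 ± 1.01 (S100a9) on the log2 scale, with a median of 2.81 beside -0.02 over all gene sums tested. This called 8 of 10 members higher, all but Elane and Lcn2, where 0.634% of all gene sums were called higher. This comparison also holds the library that chose the members, so nothing is read from the count. In a fit of the 6 CFA3D and CFA6D libraries alone, 5 of 10 were called higher, S100a8, S100a9, Ngp, Retnlg and Mmp8. The 8 members called with all libraries had every CFA6D library above every CFA3D library, as did 6.62% of all gene sums. Without CFA6D replicate 6, the median was 1.38 and 6 of 10 were called higher, namely S100a8, S100a9, Ngp, Camp, Retnlg and Mmp8, beside 0.375% of all gene sums. The members were chosen together and ranked these libraries alike, so the 6 calls are not separate results. The same 8 members lay above every CFA3D library, beside 9.65% of all gene sums, which leaving out their highest library could not change. The differences without replicate 6 ran from 0.61 ± 0.34 (Lcn2) to 1.89 ± 0.45 (S100a9). Limma gave 0 adjusted p-values under 0.05 with all libraries, with 1190 unadjusted ones under 0.05, and 2 without replicate 6, none of them of a member. In 5 of 10 members, S100a9, Ngp, Camp, Ltf and Mmp8, every CFA3D library lay below the Saline mean and every CFA6D library above it, as in 0.665% of all gene sums. Nothing is read from this count either. The comparisons with Saline share the Saline libraries, and those with CFA6D share the CFA6D libraries.

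**Figure D2:**
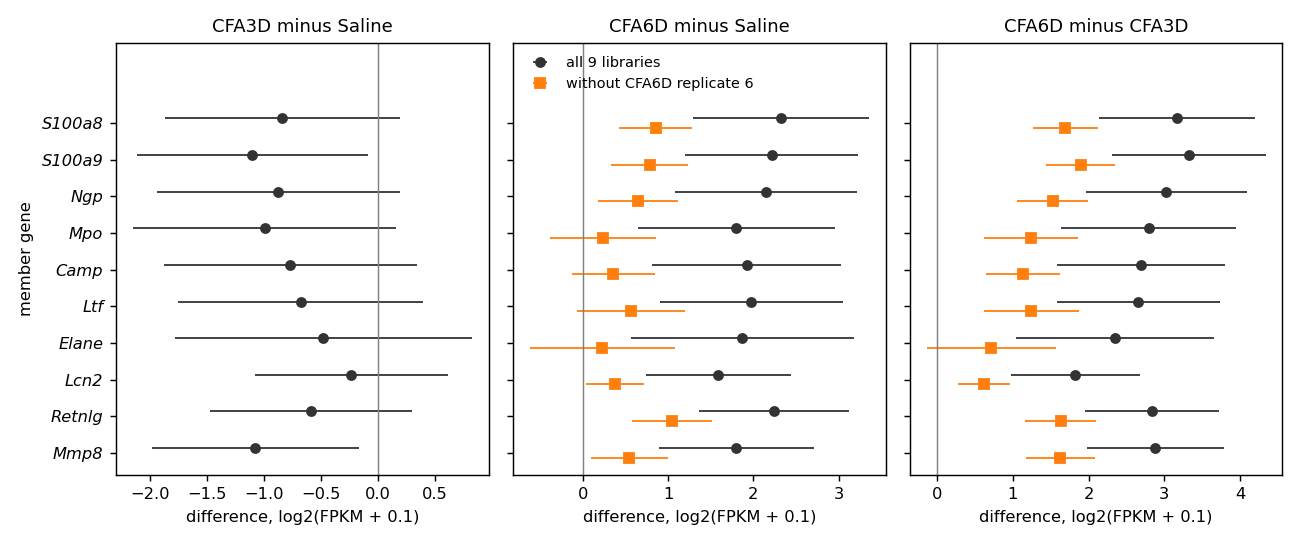
Difference of each member between group means of log2(FPKM + 0.1), with its standard error from limma, for the 3 comparisons, with all 9 libraries (black) and, for the comparisons that hold CFA6D, without CFA6D replicate 6 (orange). The median falls from 1.95 to 0.56 against Saline and from 2.81 to 1.38 against CFA3D when that library is left out.

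The summed FPKM of the members was 60.7 to 136.7 in Saline and 31.0 to 89.1 on CFA3D. On CFA6D it was 153.3 and 142.1 in replicates 4 and 5 and 2904 in replicate 6. Replicate 6 alone held 79.6% of the sum over the 9 libraries. The members made up 1.18% of all mRNA FPKM there, and 0.0127% to 0.0645% in the other libraries.

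The make-up of this sum changed far less than its size. S100a9 stood at 1.14 times S100a8 in CFA6D replicate 6 and at 0.895 to 1.40 times in the other libraries. The shares of S100a8 and Lcn2 and Retnlg lay outside the range of the others. S100a8 held 31.0% of the sum, against 23.7% to 29.3%. Lcn2 held 4.55%, against 6.45% to 16.3%, and Retnlg held 4.10%, against 4.84% to 6.85%. The other 7 members kept a share inside the range of the other libraries. The primary granule genes Mpo and Elane summed to 8.06% of the FPKM of the secondary granule genes Ngp, Camp, Ltf and Lcn2 in CFA6D replicate 6, and to 2.42% (Saline replicate 3) to 10.2% (Saline replicate 1) in the other libraries.

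**Figure D3:**
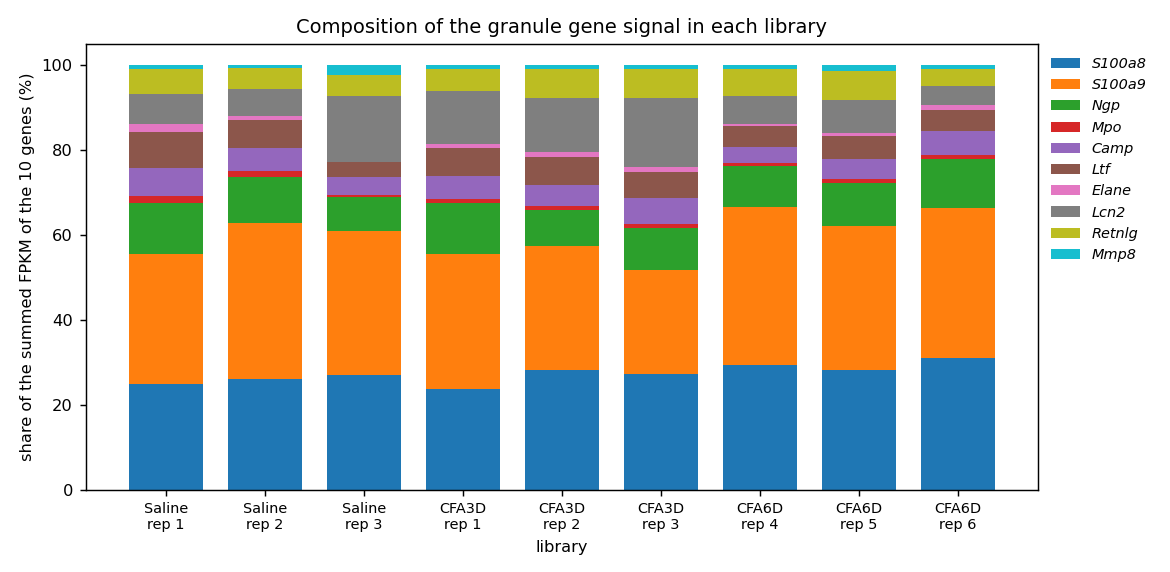
Share of each member in the summed FPKM of the 10 genes, 1 stacked bar a library. The bars have like shares although the sum behind them runs from 31.0 FPKM (CFA3D replicate 3) to 2904 FPKM (CFA6D replicate 6). S100a8 and S100a9 make up the larger part of every bar, and Lcn2 has its smallest share, 4.55%, in CFA6D replicate 6.

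The table lists 33 transcripts of the members, of which 29 were above 0 in some library and 26 were highest in CFA6D replicate 6. Summed over the 9 libraries, where CFA6D replicate 6 weighs most, a single protein-coding transcript held from 65.1% of the gene sum for Mpo to 96.1% for S100a8. The one of Mpo was listed at 0 on CFA3D replicate 1. Ngp, Elane, Camp, Retnlg and Mmp8 have a single transcript in the table. The table also holds 8 transcripts of S100a8, Lcn2, Ltf and Mpo that are annotated as retained introns, RNA in which an intron is kept. All 8 were highest in CFA6D replicate 6. Those of S100a8 summed to 31.0 FPKM there, against 0.374 to 4.06 FPKM in the other libraries, and those of Ltf to 22.0 FPKM, against 0.415 to 2.66 FPKM. Those of Lcn2 summed to 16.9 FPKM, against 0.606 to 1.85 FPKM. As a share of its gene sum, the retained intron RNA of S100a8 was 3.44% in replicate 6, within the 2.09% to 12.0% of the other libraries, and that of Ltf was 14.9%, within 12.6% to 37.4%. That of Lcn2 was 12.8%, within 7.92% to 19.6%, while that of Mpo was 5.75%, below the 6.28% to 17.2% of the other libraries. FPKM of transcripts that overlap in 1 gene rests on how reads were divided among them, which is not given in the sources used here.

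Other genes of the neutrophil programme were listed by role, and their counts stand beside 17.5% of all gene sums highest in CFA6D replicate 6 and 3.26% over 2-fold above every other library. Some of these genes passed the filter only through replicate 6, so the counts describe that library and support nothing about the day. Of 7 further primary granule genes, 6 passed the filter, all 6 were highest in replicate 6 and 5 were over 2-fold above every other library. Ctsg, cathepsin G, stood at 8.73 FPKM there and at 0.0451 to 0.446 FPKM elsewhere. Prtn3, proteinase 3, stood at 18.0 FPKM, against 0.448 to 1.74. Serpinb1a, a protease inhibitor that other tissues also make, stood at 31.5 FPKM, against 19.1 to 28.0, and Bpi did not pass the filter and was listed at 0 in replicate 6.

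Of 19 further secondary and tertiary granule genes, 17 passed the filter, all 17 were highest in CFA6D replicate 6 and 16 were over 2-fold above every other library. Chil3, a chitinase-like protein, stood at 111 FPKM there and at 1.01 to 7.78 FPKM elsewhere. Mmp9, gelatinase B, stood at 34.1 FPKM, against 0.446 to 3.23, and Lyz2, lysozyme, which macrophages also make, at 218 FPKM, against 36.9 to 75.3. Stfa2 and Stfa3, stefins of myeloid cells, were listed at 0 in the other 8 libraries and at 0.746 and 0.542 FPKM in replicate 6. The exception to the 2-fold gap was Mmp25, at 9.21 FPKM against 4.07 to 9.01.

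In the limma fit, 5 of these 17 genes were called higher on CFA6D than in Saline (Adam8, Chil3, Padi4, Stfa2l1 and Wfdc21), beside 0.398% of all gene sums, and 7 were called higher than on CFA3D, beside 0.634%. Without CFA6D replicate 6, 16 of them passed the filter. Then 3 were called higher than Saline (Padi4, Stfa2l1 and Wfdc21) and 4 higher than CFA3D, beside 0.325% and 0.375% of all gene sums. Stfa2l1 rested on low values, 0 in Saline and 0.210 and 0.190 FPKM in CFA6D replicates 4 and 5. The list was chosen with earlier results of these data known, so nothing is read from these counts. Padi4, the deiminase that citrullinates histones in neutrophils, and Wfdc21, a small secreted protein, were called higher in both comparisons with and without that library. Padi4 stood at 0.478, 0.357 and 0.171 FPKM in Saline, at 0.309, 0.592 and 0.157 on CFA3D, and at 0.812, 0.969 and 10.0 on CFA6D. Every CFA6D library was above all others. The limma differences of Padi4 from Saline were 2.37 ± 0.83 with all libraries and 1.25 ± 0.45 without replicate 6, with adjusted p = 0.329 and 0.459. Wfdc21 differed from Saline by 2.70 ± 1.00 and 1.30 ± 0.48, with adjusted p = 0.353 and 0.469 in limma. It stood at 1.16, 1.58 and 26.1 FPKM on CFA6D, and at 0.260 to 0.906 FPKM in the other groups. The median over the 16 genes without replicate 6 was 0.13 against Saline and 0.51 against CFA3D.

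Of 18 genes of mature neutrophils, all passed the filter, 15 were highest in CFA6D replicate 6 and 14 were over 2-fold above every other library. Csf3r, the G-CSF receptor, stood at 17.2 FPKM there and at 1.01 to 3.08 FPKM elsewhere. Cxcr2, a chemokine receptor, stood at 6.35 FPKM, against 0.164 to 0.649, and Ly6g, the surface antigen that defines mouse neutrophils, at 7.19 FPKM, against 0.126 to 0.570. The 3 that were not highest were G0s2, Mrgpra2a and Mrgpra2b. All 6 genes of the NADPH oxidase, the enzyme of the oxidative burst, were over 2-fold above every other library, with Ncf1 at 22.4 FPKM, against 1.75 to 4.10. Without replicate 6, limma called 0 of 5 primary granule, 0 of 16 mature neutrophil and 0 of 6 NADPH oxidase genes higher than Saline, beside 0.325% of all gene sums. Their medians were -0.01, 0.08 and -0.17. Against CFA3D it called 0, 2 and 0 higher, beside 0.375%, with medians of 0.36, 0.35 and 0.01.

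Of 9 factors and receptors of myeloid precursors, 6 were highest in CFA6D replicate 6 and 4 were over 2-fold above every other library. These 4 were Cebpe, which drives secondary granule genes, at 5.52 FPKM against 0.0804 to 0.440, Myb at 2.79 against 0.142 to 0.390, Gfi1 at 1.26 against 0.0214 to 0.267, and Spi1, which encodes PU.1, at 8.60 against 1.53 to 3.33. Runx1, at 12.5 FPKM, lay inside the 9.83 to 14.2 FPKM of the others. All 8 proliferation genes were over 2-fold above every other library. Mki67 stood at 6.50 FPKM, against 0.385 to 0.727, and Top2a at 7.17 FPKM, against 0.154 to 1.07.

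Of 11 genes for signals that draw neutrophils into tissue, 5 passed the filter. Of these, 3 (Cxcl1, Tnf and Sele) were highest in CFA6D replicate 6, as were 17.5% of all gene sums, and none was over 2-fold above every other library. Tnf, at 0.671 FPKM, was 1.65-fold above the next highest library. Without replicate 6, Sele was called lower on CFA6D than on CFA3D, at -1.12 ± 0.41, as were 56 of 16012 gene sums. That call rested on low values, 0.0352 and 0.0218 FPKM in CFA6D replicates 4 and 5 against 0.131, 0.370 and 0.0998 on CFA3D. Cxcl1 stood at 0.466 FPKM in replicate 6, against 0.0581 to 0.312, Cxcl2 at 0.0730, against 0 to 0.180, and Il17a was listed at 0 in all 9 libraries. Of the 6 receptors of the granule proteins, 1 was highest in replicate 6 and none was over 2-fold above the others. Tlr4, which calprotectin binds, stood at 1.80 FPKM, against 0.553 to 1.70. Slc22a17, a receptor of lipocalin 2, stood at 36.4 FPKM, within 25.7 to 44.7, and Lrp1, which binds lactoferrin, at 53.5 FPKM, within 39.5 to 68.8.

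Markers of other blood and marrow cells moved with the members in CFA6D replicate 6, and their part in the result was not tested. Of 13 erythroid genes in the table, 8 were over 2-fold above every other library, among them Slc4a1, the band 3 anion exchanger, at 8.73 FPKM against 0.194 to 1.29, and Gata1 at 1.01 against 0.0200 to 0.154. The globin genes, by contrast, were inside the range of the other libraries. Hba-a1 stood at 977 FPKM, within 552 to 2041, and the list as a whole summed to 2817 FPKM in replicate 6, to 2188 and 2536 in CFA6D replicates 4 and 5, to 2193 to 5792 in Saline and to 1668 to 3864 on CFA3D. Of 12 eosinophil, basophil and mast cell genes, 7 were over 2-fold above every other library, with Prg2 of eosinophils at 30.0 FPKM, against 0.567 to 3.16, and Mcpt8 of basophils at 1.95, against 0 to 0.0508. The list summed to 68.3 FPKM in replicate 6, to 12.4 and 19.3 in CFA6D replicates 4 and 5, to 16.4 to 25.6 in Saline and to 5.63 to 37.7 on CFA3D. Tpsb2 and Cma1 of mast cells were inside the range of the others.

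Of 6 megakaryocyte and platelet genes, 3 were over 2-fold above every other library, and the list summed to 45.8 FPKM in CFA6D replicate 6, to 9.07 and 14.6 in replicates 4 and 5, to 11.2 to 16.7 in Saline and to 8.04 to 13.1 on CFA3D. Of 12 B lineage genes 7 passed the filter and 4 were over 2-fold above. That list summed to 7.70 FPKM, against 2.28 and 2.33 in CFA6D replicates 4 and 5, 2.18 to 3.12 in Saline and 1.97 to 2.68 on CFA3D, while the precursor B cell gene Vpreb1 stood at 0.0904 FPKM, within 0 to 0.643. Of 12 monocyte and macrophage genes, 2 were over 2-fold above, Ly6c2 of inflammatory monocytes at 28.4 FPKM, against 0.927 to 2.26, and F13a1 at 16.4, against 4.28 to 7.40. C1qa of resident macrophages stood at 20.1 FPKM, within 12.3 to 35.1, and the list summed to 135.4 FPKM, to 64.9 and 101.6 in CFA6D replicates 4 and 5, to 102.6 to 129.7 in Saline and to 89.3 to 157.2 on CFA3D. None of the 8 T and NK cell genes was over 2-fold above, and they summed to 6.54 FPKM, against 2.96 and 2.63 in CFA6D replicates 4 and 5, 3.28 to 4.66 in Saline and 3.56 to 6.74 on CFA3D. In limma, Vpreb1 was called lower on CFA6D than in Saline with and without replicate 6, at -1.32 ± 0.53 and -1.39 ± 0.61. Without replicate 6, Ccr2 and Cd3g were called lower than Saline, at -1.02 ± 0.28 and -1.52 ± 0.58. Against CFA3D, Ccr2, Cd3g and Cx3cr1 were, at -1.23 ± 0.28, -1.45 ± 0.58 and -1.26 ± 0.50. Over all gene sums, 107 and 56 of 16012 were then called lower, and 30 of 16096 with all libraries against Saline. The calls of Vpreb1 and Cd3g rested on low values, 0.174 and 0 FPKM and 0.0248 and 0.165 FPKM in CFA6D replicates 4 and 5.

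Genes of bone were also high in CFA6D replicate 6, where 5 of 10 were over 2-fold above every other library. Acp5, an enzyme of osteoclasts, stood at 16.0 FPKM, against 0.216 to 2.22, and Bglap, osteocalcin, at 20.3, against 0.360 to 6.39. The bone list summed to 95.9 FPKM in replicate 6 and to 43.5 and 12.9 FPKM in CFA6D replicates 5 and 4, to 20.6 to 35.7 FPKM in Saline and to 10.8 to 28.8 FPKM on CFA3D. Unlike the members, it therefore differed between CFA6D replicates 4 and 5. The part of these markers in the result was not tested either.

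The labelled tissue had its markers in every library. The 10 sensory neuron genes summed to 1729 FPKM in CFA6D replicate 6, to 2028 and 1762 in replicates 4 and 5, to 1349 to 1797 in Saline and to 1726 to 1995 on CFA3D, and none was highest in replicate 6. The 10 genes of satellite glia and Schwann cells summed to 3295 FPKM there, to 4083 and 3905 in CFA6D replicates 4 and 5, to 3418 to 4078 in Saline and to 3649 to 3948 on CFA3D, so that their sum was lowest in replicate 6.

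**Figure D4:**
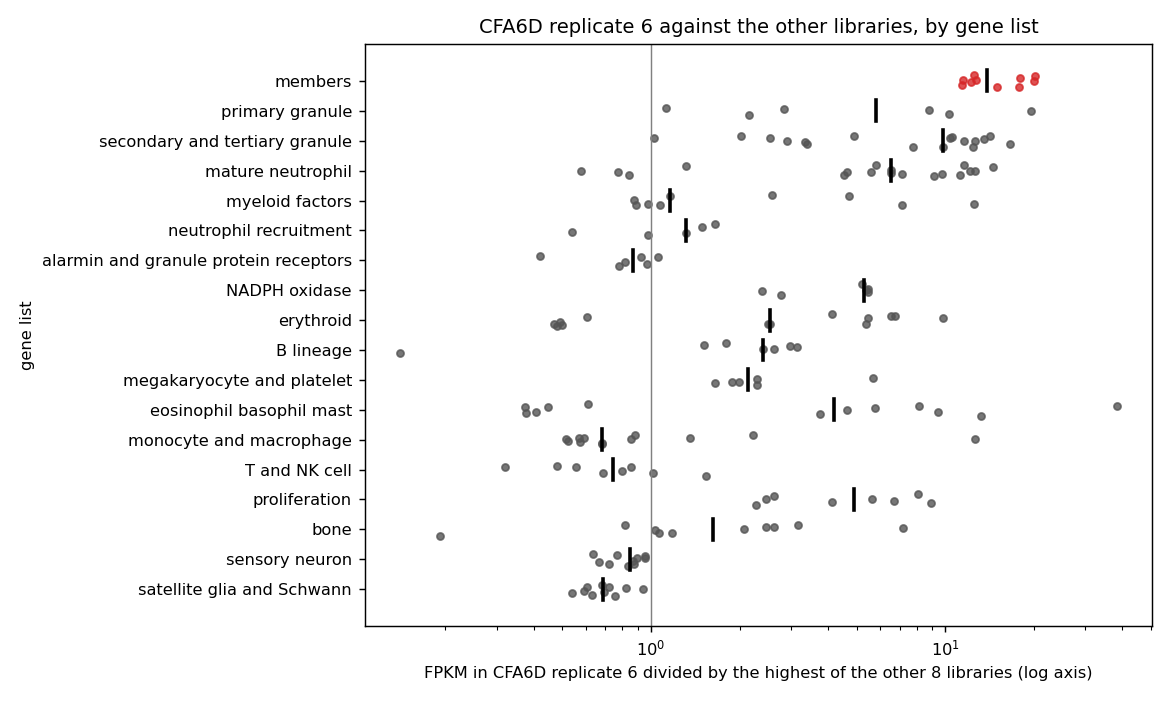
FPKM in CFA6D replicate 6 divided by the highest of the other 8 libraries (log axis), 1 point a gene that passed the filter and was above 0 in another library, grouped by list, with the median of each list as a black bar. The members (red) have a median of 13.9, the secondary and tertiary granule genes 9.84, the mature neutrophil genes 6.55, the proliferation genes 4.88, and the sensory neuron genes 0.850.

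The pattern of the members over the 9 libraries was taken as the mean of their log2(FPKM + 0.1), and the 10 gene sums most like it among the 16086 others were chosen by Pearson's r. Their r ran from 0.98 to 0.99, and among them were Cd177, Trem3, Chil3, Abca13, Slfn4, Itgb2l, Ctsg, Ncf1 and Mcemp1. CFA6D replicate 6 sets most of this likeness, so r was also taken over the 8 libraries without CFA6D replicate 6, and it then ran from 0.88 (Mcemp1) to 0.97 (Cd177). Cd177, a surface protein of neutrophils, stood at 24.8 FPKM in replicate 6 and at 0.356 to 1.83 FPKM elsewhere, and was the gene most like the members with and without that library. With a pseudocount of 1, Chil3 (r = 0.992) stood above Cd177 (r = 0.990). Of the 10, 4 were among the 10 most alike over the 8 libraries and 5 among the 10 with a pseudocount of 1.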

How the data were processed

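RNA of 9 TG libraries (3 Saline, 3 CFA3D, 3 CFA6D) was read from the FPKM values per transcript that the authors deposited in an mRNA table. All per-sample columns were used (0 were left out), and the tables of lncRNA and other noncoding RNA were not used here. Per the study's methods, ribosomal RNA was depleted, libraries kept the strand, and reads trimmed by Trimmomatic were aligned to the GRCm38 genome, while the submitters' processing notes name Bowtie 0.12.2 and mm8. The methods name CLC Genomics Workbench for the expression level of a gene and do not mention FPKM. Whether the deposited FPKM came from it is not given in the sources used here. Coordinates are from GENCODE release 21 for mouse, on GRCm38.

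Of 102122 transcripts, 101539 were matched to GENCODE by identifier and summed to 21809 gene sums. Depth and approximate read pairs were computed from the step of low products of FPKM and length, between 0.015 and 0.045. Depth sets the counting error of the low members, and the spread between pools comes on top of it. Those whose mean over the 9 libraries reached 0.1 FPKM were fitted as log2(FPKM + 0.1) by group in limma 3.58.1 (R 4.3.3), with a trended prior. The fit was tested on simulated data first. Differences on this scale understate those of low genes. Adjusted p-values are Benjamini-Hochberg values over all gene sums tested. The members and lists were chosen with earlier results of these data known. The members are named in full, and from the other lists some of those with high FPKM, of the called ones and of those at 0 that define a cell type. Several spellings of the motifs were tried with the promoters in view. The alternatives were other pseudocounts, filters, normalization, samples in the fit, the highest transcript in place of the sum, a replicate block and each library left out. Of the genes most like the members, 1 is not reported here.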

Additional observations from a re-analysis of the deposited data

Results flagged for a closer look

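In 5 members every CFA3D library lay below the Saline mean and every CFA6D library above it, as in 0.665% of all gene sums. The log2 difference of CFA6D from CFA3D was 3.32 for S100a9, 3.02 for Ngp, 2.69 for Camp, 2.65 for Ltf and 2.88 for Mmp8. Without CFA6D replicate 6 it was 1.89, 1.52, 1.13, 1.24 and 1.63, in the same order. The members were chosen for their height in CFA6D replicate 6 and ranked the libraries alike, so nothing is read from the count. Saline and CFA3D libraries overlapped for all 10 members. In Ngp, Camp and Ltf, CFA6D replicates 4 and 5 lay below Saline replicate 1, and in Mmp8 replicate 4 lay below Saline replicate 3. The change of direction between the days was not tested, and both days are set against the same 3 Saline libraries, which were collected on day 3.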

How the results depend on the processing

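All members kept their direction on CFA6D against Saline and against CFA3D under every alternative run. On CFA3D against Saline 1 of 60 values from leaving out a library turned, to 0.36, without Saline replicate 1. The median of the members, over the left-out libraries, ran from -1.27 to -0.39 (CFA3D against Saline), 0.56 to 2.77 (CFA6D against Saline) and 1.38 to 3.57 (CFA6D against CFA3D). The lowest CFA6D medians were those without CFA6D replicate 6. With a library left out, 0 to 8 members were called higher on CFA6D than in Saline (8 without CFA6D replicate 4) and 4 (without CFA3D replicate 3) to 10 (without CFA6D replicate 4) higher than on CFA3D. In the settings that keep all libraries of the groups compared, S100a8 was not called for CFA6D against Saline with no filter, with only the groups compared, with a pseudocount of 1, after quantile normalization or with the highest transcript, and 5 (only the groups compared) to 8 members were called against CFA3D. The summed FPKM of CFA6D replicate 6 was 3016 after quantile normalization and 2689 with the highest transcript of each gene.

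The number of gene sums called moved more. For CFA3D against Saline, CFA6D against Saline and CFA6D against CFA3D it was 55, 94 and 124. It became 9, 20 and 36 with a pseudocount of 1, 18, 37 and 60 with a mean of at least 1 FPKM, and 146, 201 and 203 with the highest transcript of each gene. With a library left out it ran from 46 to 108, 114 to 240 and 102 to 273. The replicate block could be fitted only for CFA3D against Saline, since CFA6D replicates carry other numbers, and it called 115 gene sums, 17 higher and 98 lower, with S100a9 and Mmp8 among the latter. The deviations of same-numbered libraries from their group means had r = 0.087, -0.080 and 0.030, and those of the other pairs -0.110 to 0.061. This does not settle whether the numbers pair the samples, which the labels do not say. The cause of these shifts was not tested. With 3 pools a group and 1 library that stands apart, the CFA6D mean of each member is mostly the value of that library.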
